A study of Mus musculus with 34 samples.

Results

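Drd1, Drd2, Adora2a, Ppp1r1b, Rgs9, Pde10a, Penk, Tac1 and Gpr6 are genes used to mark the projection neurons of the striatum, and here they were followed in RNA from the cortex. They were chosen by symbol, each symbol matched 1 gene, and they are 9 of the 55385 genes listed and 9 of the 17632 with enough counts to be tested. The libraries were poly-A RNA from brain cortex of 34 mice aged 6 months, 16 female and 18 male, with 16029841 to 21388650 counted reads each. The mice were wild-type C57BL/6J (WT), Dp16, 5xFAD or 5xFAD-Dp16, the cross that carries both lesions. Dp16 mice have an extra copy of a stretch of mouse chromosome 16 whose genes match many of those on the human chromosome that is tripled in Down syndrome. In 5xFAD mice, mutant human amyloid precursor and presenilin transgenes of familial Alzheimer's disease are expressed from Thy1 promoter elements, mainly in neurons. Each mouse received daily by gavage for 1 month either tofacitinib, a Janus kinase inhibitor, at 15 mg/kg, or 0.5% methylcellulose as sham, so every group shares the gavage. Sham and tofacitinib groups, called Sham and Tofa below, held 5 and 5 WT, 3 and 5 Dp16, 4 and 5 5xFAD, and 3 and 4 5xFAD-Dp16 mice, each mouse giving 1 library.

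The striatum lies directly beneath the cortex, and most of its neurons are GABAergic medium spiny projection neurons. Those of the direct pathway carry the D1 dopamine receptor and make substance P, while those of the indirect pathway carry the D2 dopamine receptor and an adenosine receptor and make enkephalin. Both kinds hold high levels of proteins that set the strength of cAMP signalling below these receptors. The cortex also makes some of these transcripts, since certain deep-layer neurons carry Drd1 and certain interneurons make Tac1 or Penk.

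By role, 4 of the 9 genes encode receptors. Drd1 (ENSMUSG00000021478.6, chr13:54051183-54055705, minus strand) encodes the D1 receptor, which raises cAMP, and Drd2 (ENSMUSG00000032259.8, chr9:49340627-49408177, plus strand) the D2 receptor, which lowers it. Adora2a (ENSMUSG00000020178.6, chr10:75316877-75334784, plus strand) encodes that adenosine receptor, which raises cAMP, and Gpr6 (ENSMUSG00000046922.7, chr10:41069977-41072285, minus strand) a cAMP-raising orphan receptor of indirect pathway neurons. Signalling proteins make up 3 more. Ppp1r1b (ENSMUSG00000061718.12, chr11:98348404-98357796, plus strand) encodes a dopamine-controlled inhibitor of protein phosphatase, Rgs9 (ENSMUSG00000020599.13, chr11:109225355-109298129, minus strand) a regulator that shortens G protein signals, and Pde10a (ENSMUSG00000023868.17, chr17:8525372-8986648, plus strand) a phosphodiesterase that breaks down cyclic nucleotides. The peptide precursors are Penk for enkephalins (ENSMUSG00000045573.9, chr4:4133531-4138819, minus strand) and Tac1 for substance P (ENSMUSG00000061762.12, chr6:7554879-7565834, plus strand). Positions are those of GENCODE M21 on GRCm38, values are totals over a gene, and none of the 9 lies on chromosome 16.

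The promoter sequences of the 9 genes were searched for shared letters, and whether these bear on the genes' levels was not tested. The RefSeq promoter table (GRCm38.p6) held 6 of the 9 genes in 8 start sites; Adora2a, Ppp1r1b and Penk are named only. In the 250 bases before each start, on both strands, the cAMP response element TGACGTCA was found in 1 of the 8 windows, that of Gpr6, and in 1.55% of 32851 promoters of the table. The GC box GGGCGG was found in 5 of the 8, in Drd1, Drd2, Pde10a, Rgs9 and Tac1, and in 32.7% of all promoters, and the letters of the first motif cannot overlap those of the second. The windows of Drd2 (chr9:49340153-49340402, plus strand), Rgs9 (chr11:109298182-109298431, minus strand) and Gpr6 (chr10:41072291-41072540, minus strand) are shown because they hold these letters and lie outside their gene in GENCODE M21. Capitals mark the GC boxes in Drd2, 93 and 56 bases before the start, and in Rgs9, 91 bases before it, and the cAMP response element in Gpr6, 78 bases before it.
Drd2: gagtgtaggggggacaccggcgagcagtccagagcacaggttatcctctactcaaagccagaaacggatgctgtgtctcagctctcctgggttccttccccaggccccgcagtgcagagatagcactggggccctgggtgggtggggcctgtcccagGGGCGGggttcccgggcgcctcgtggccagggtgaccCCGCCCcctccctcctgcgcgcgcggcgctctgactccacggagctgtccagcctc
Rgs9: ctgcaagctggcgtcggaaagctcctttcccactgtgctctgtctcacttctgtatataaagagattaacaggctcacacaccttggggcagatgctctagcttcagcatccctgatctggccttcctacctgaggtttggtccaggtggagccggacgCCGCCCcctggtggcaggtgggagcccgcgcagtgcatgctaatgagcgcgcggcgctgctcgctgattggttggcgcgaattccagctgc
Gpr6: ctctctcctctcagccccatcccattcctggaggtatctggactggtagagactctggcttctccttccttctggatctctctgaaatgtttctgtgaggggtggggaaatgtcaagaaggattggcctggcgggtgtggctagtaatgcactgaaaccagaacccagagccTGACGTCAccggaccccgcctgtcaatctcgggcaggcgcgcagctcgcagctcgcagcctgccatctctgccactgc
Drd2 and Rgs9 thus hold the GC box and Gpr6 the cAMP response element, and no other motif was searched.

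As a check of the tissue, the cortical excitatory neuron gene Slc17a7, a vesicular glutamate transporter, was at 513 to 1680 CPM (counts scaled to a common library total after TMM adjustment) with a median of 1360. Tbr1, a transcription factor of cortical projection neurons, was at 19.9 to 200 CPM. Both were lowest in 5xFAD Tofa 2. That library also held 1369 counts of the dopamine transporter gene Slc6a3 against at most 15 in any other, and the highest levels of the thalamic genes Tcf7l2 (56.5 CPM) and Slc17a6 (99.7 CPM). On the first 2 principal components of log2 CPM, 5xFAD Tofa 2 and WT Sham 2 stood apart from the rest. The mean levels of the 9 genes in them, at 1.20 and 1.78 times their geometric mean over the 34 libraries, lay within the range of the others.

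All 9 genes were detected in all 34 libraries. On a per-length scale (RPKM, as deposited) the median level was highest for Penk at 207.8 and Ppp1r1b at 142.6. Tac1 at 23.2, Adora2a at 20.3, Pde10a at 20.3 and Drd2 at 15.2 followed, and Drd1 at 9.62, Rgs9 at 9.46 and Gpr6 at 7.30 were lowest. Neighbours such as Adora2a with Pde10a, or Drd1 with Rgs9, differed by far less than the spread of either over libraries.

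The spread between mice was wide for each of the genes. The highest library exceeded the lowest 7.77-fold for Drd1 (12.2 to 94.5 CPM, median 34.1) and 17.96-fold for Drd2 (4.52 to 81.1 CPM, median 38.7). The ratio was 9.34 for Adora2a (11.2 to 104 CPM) and 14.9 for Gpr6 (2.02 to 30.1 CPM). Among the signalling proteins it was 5.46 for Ppp1r1b (130.9 to 714.5 CPM), 13.0 for Rgs9 (8.71 to 113.6 CPM) and 7.64 for Pde10a (51.1 to 389.9 CPM). The peptide precursors spanned a 9.08-fold range for Penk (87.9 to 798 CPM) and a 10.4-fold range for Tac1 (9.81 to 102 CPM). The SD of log2 CPM over libraries, 0.63 to 0.97, was larger than that of 99.6% to 99.95% of the 9835 genes whose mean reached 10 CPM. Differences between the 8 groups held 22.5% to 36.2% of the variation in log2 CPM, so most of it lay between mice of 1 group. Means of 8 small groups take up part of the variation even where groups do not differ, so these shares do not measure a group effect.

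Drd1 shows that spread library by library. It was at 73.9, 54.6, 35.0, 68.6 and 26.0 CPM in WT Sham 1 to 5, and at 94.5, 15.2, 17.9, 25.9 and 21.1 CPM in WT Tofa 1 to 5. Within WT Tofa, 1 mouse had the highest level of the series and the other 4 lay level with or below the lowest WT Sham mouse. In 5xFAD Sham 1 to 4 it was at 39.9, 46.3, 42.6 and 46.0 CPM, and in 5xFAD Tofa 1, 2, 4, 5 and 6 at 19.8, 34.4, 57.6, 43.6 and 38.9 CPM. The 5xFAD Sham mice were the most alike of any group. In Dp16 Sham 1 to 3 it was at 21.2, 19.4 and 34.6 CPM, and in Dp16 Tofa 1 to 5 at 17.8, 49.0, 20.3, 56.9 and 33.8 CPM. In 5xFAD-Dp16 Sham 1, 2 and 4 it was at 32.9, 12.7 and 15.0 CPM, and in 5xFAD-Dp16 Tofa 1 to 4 at 26.5, 48.8, 12.2 and 17.8 CPM. The groups with the duplication overlapped WT in both treatments, and 5xFAD-Dp16 Sham lay wholly below 5xFAD Sham.

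Drd2, which marks the other pathway, followed much the same order of mice. It was at 81.1, 60.8, 38.2, 58.1 and 26.2 CPM in WT Sham 1 to 5, and at 71.65, 8.51, 19.0, 23.6 and 14.7 CPM in WT Tofa 1 to 5. As for Drd1, WT Tofa 1 stood far above the other mice of its group. In 5xFAD Sham 1 to 4 it was at 56.3, 56.5, 40.6 and 63.3 CPM, and in 5xFAD Tofa 1, 2, 4, 5 and 6 at 15.4, 42.7, 62.8, 44.9 and 39.6 CPM. It was at 19.0, 18.4 and 35.6 CPM in Dp16 Sham 1 to 3 and at 21.1, 55.7, 24.2, 58.4 and 39.2 CPM in Dp16 Tofa 1 to 5. Mouse 3 of Dp16 Sham was the high one for both receptors. The 5xFAD-Dp16 Sham mice 1, 2 and 4 had 39.8, 13.5 and 13.0 CPM, and 5xFAD-Dp16 Tofa 1 to 4 had 26.9, 56.5, 4.52 and 19.2 CPM. The ratio of Drd2 to Drd1 counts ran from 0.371 in 5xFAD-Dp16 Tofa 3 to 1.41 in 5xFAD Sham 1, a far narrower range than that of either gene.

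**Figure D1:**
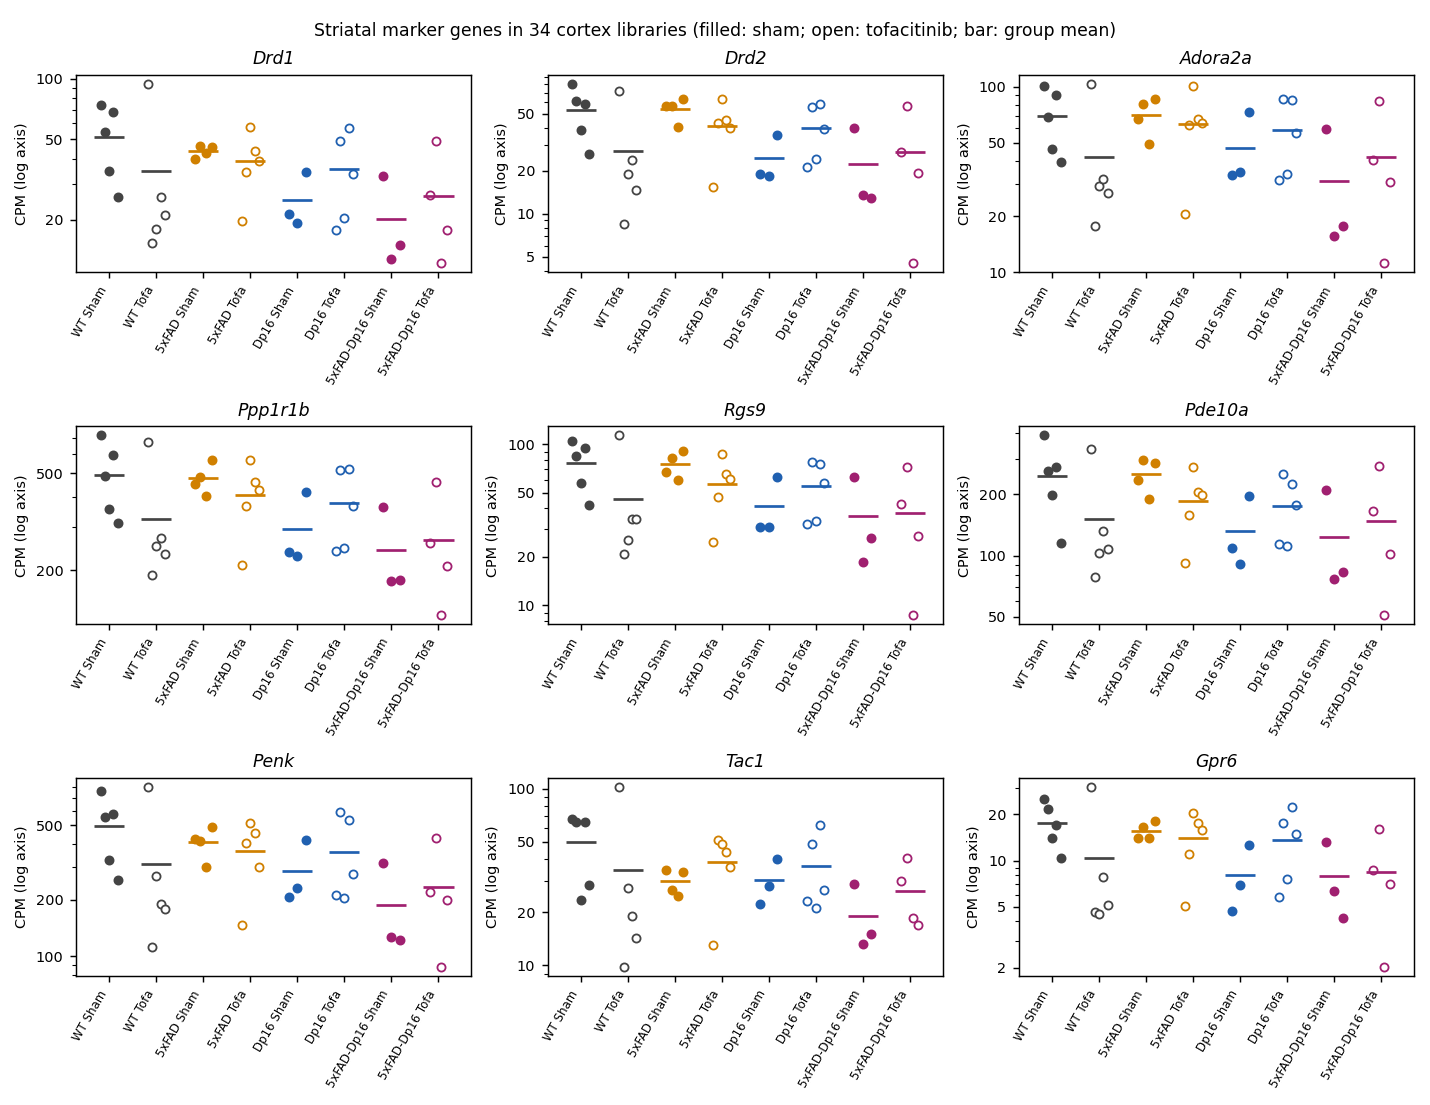
CPM on a log axis of each of the 9 genes by group, 1 point per library, filled for sham and open for tofacitinib, with a bar at the group mean. WT Tofa 1 stands above the rest of its group in every panel, and Drd1 in 5xFAD-Dp16 Sham (12.7 to 32.9 CPM) lies below 5xFAD Sham (39.9 to 46.3 CPM).

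The mean log2 level of the 9 genes, each taken relative to its own mean, ordered the libraries. WT Tofa 1 was highest at 2.51 times the geometric mean of all libraries, followed by WT Sham 1 at 2.34 and WT Sham 4 at 1.90. 5xFAD-Dp16 Tofa 3 was lowest at 0.284, followed by WT Tofa 2 at 0.413, 5xFAD-Dp16 Sham 2 at 0.447 and 5xFAD-Dp16 Sham 4 at 0.466. The extremes were shared: 5xFAD-Dp16 Tofa 3 was the lowest library for 8 of the 9 genes, all but Tac1, and the highest was WT Tofa 1 or WT Sham 1 for all 9. The 9 genes together made up 0.0327% to 0.232% of the scaled total. In bulk tissue, fewer cells of a type and less RNA per cell cannot be told apart.

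By group the mean log2 level was 0.59 ± 0.59 in WT Sham (SD, n = 5), 0.51 ± 0.22 in 5xFAD Sham (n = 4), 0.21 ± 0.69 in 5xFAD Tofa (n = 5) and 0.14 ± 0.66 in Dp16 Tofa (n = 5). It was -0.27 ± 0.54 in Dp16 Sham (n = 3), -0.35 ± 0.99 in WT Tofa (n = 5), -0.52 ± 1.03 in 5xFAD-Dp16 Tofa (n = 4) and -0.68 ± 0.79 in 5xFAD-Dp16 Sham (n = 3). Each gap between neighbours in this order was smaller than the larger of the 2 SDs. Sorting places similar means side by side, so these gaps cannot show whether groups differ. The ends of the order, WT Sham at 0.59 and 5xFAD-Dp16 Sham at -0.68, lay farther apart than either SD (0.59 and 0.79). These ends were picked for being extreme, so their distance is no test of a group effect either. Within a group the highest mouse exceeded the lowest 1.44-fold in 5xFAD Sham and 6.08-fold in WT Tofa.

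**Figure D2:**
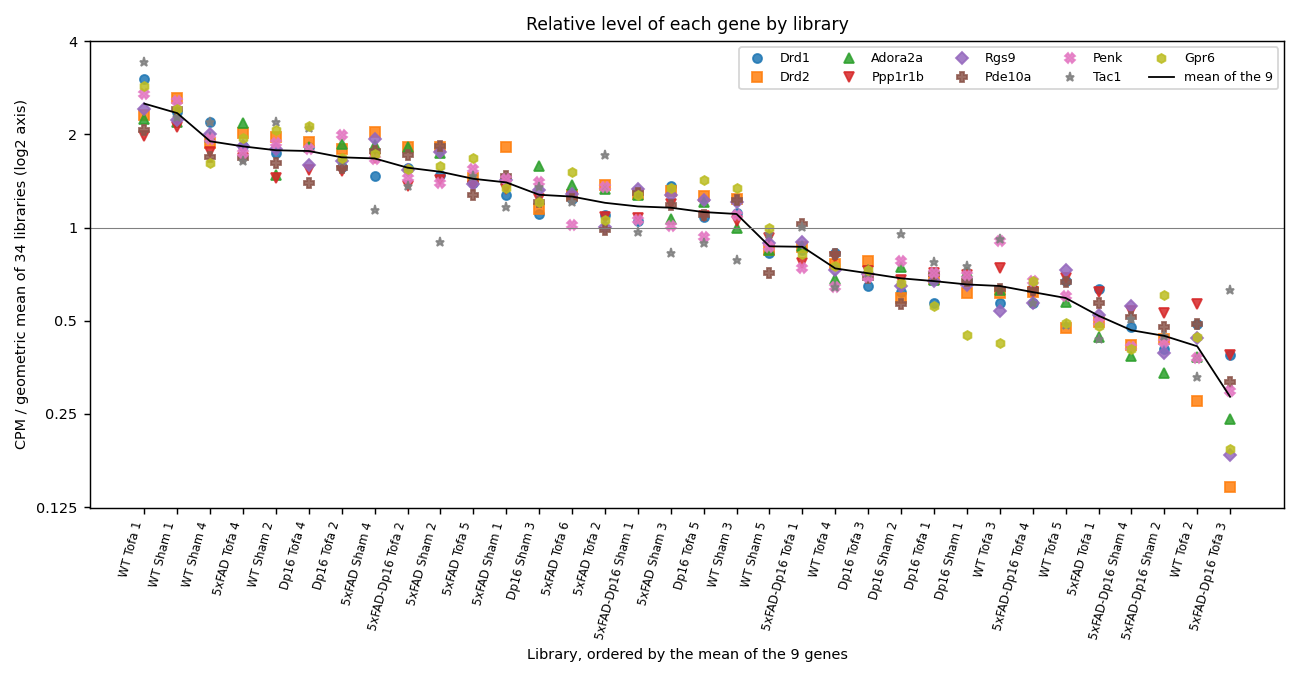
CPM of each gene divided by its geometric mean over the 34 libraries, on a log2 axis, for libraries ordered by the mean of the 9 genes (black line). The 9 symbols of a library lie close to the line across the range from 2.51 to 0.284, and groups are interleaved along the order; Tac1 in 5xFAD-Dp16 Tofa 3 is the point farthest above it at the low end.

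Drd1 rose and fell with each of the other 8 genes over the 34 libraries, in permutation tests of log2 CPM with 100000 draws (two-sided). Pearson's r was 0.978 with Ppp1r1b, 0.961 with Pde10a and 0.955 with Rgs9, the signalling proteins. It was 0.948 with Adora2a, 0.943 with Gpr6 and 0.937 with Drd2, the receptors of the indirect pathway. The peptide precursors had 0.948 for Penk and 0.877 for Tac1. Spearman's rho was 0.863 to 0.975. Each of the 8 relations had a p of 1e-05, the smallest these permutations can give, and an adjusted p of 1e-05 for r and rho. Without the 2 libraries farthest from the median of Drd1, WT Tofa 1 and 5xFAD-Dp16 Tofa 3, r was 0.863 to 0.98. Using deviations from group means it was 0.888 to 0.976, so the relations held within groups as well as across them.

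Tac1 followed the others least closely, although it marks the same pathway as Drd1. Its r with the mean of the other 8 was 0.86, against 0.958 to 0.988 for the rest. Tac1 was at 18.6 CPM in 5xFAD-Dp16 Tofa 3, the lowest library for the others, while WT Tofa 2 with 9.81 CPM was lowest for Tac1. In 5xFAD Sham 1 to 4 Tac1 was at 34.7, 26.7, 24.7 and 33.9 CPM, and in Dp16 Sham 1 to 3 at 22.4, 28.3 and 40.1 CPM. The ratio of Penk to Tac1 counts ran from 4.71 in 5xFAD-Dp16 Tofa 3 to 15.5 in 5xFAD Sham 2.

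**Figure D3:**
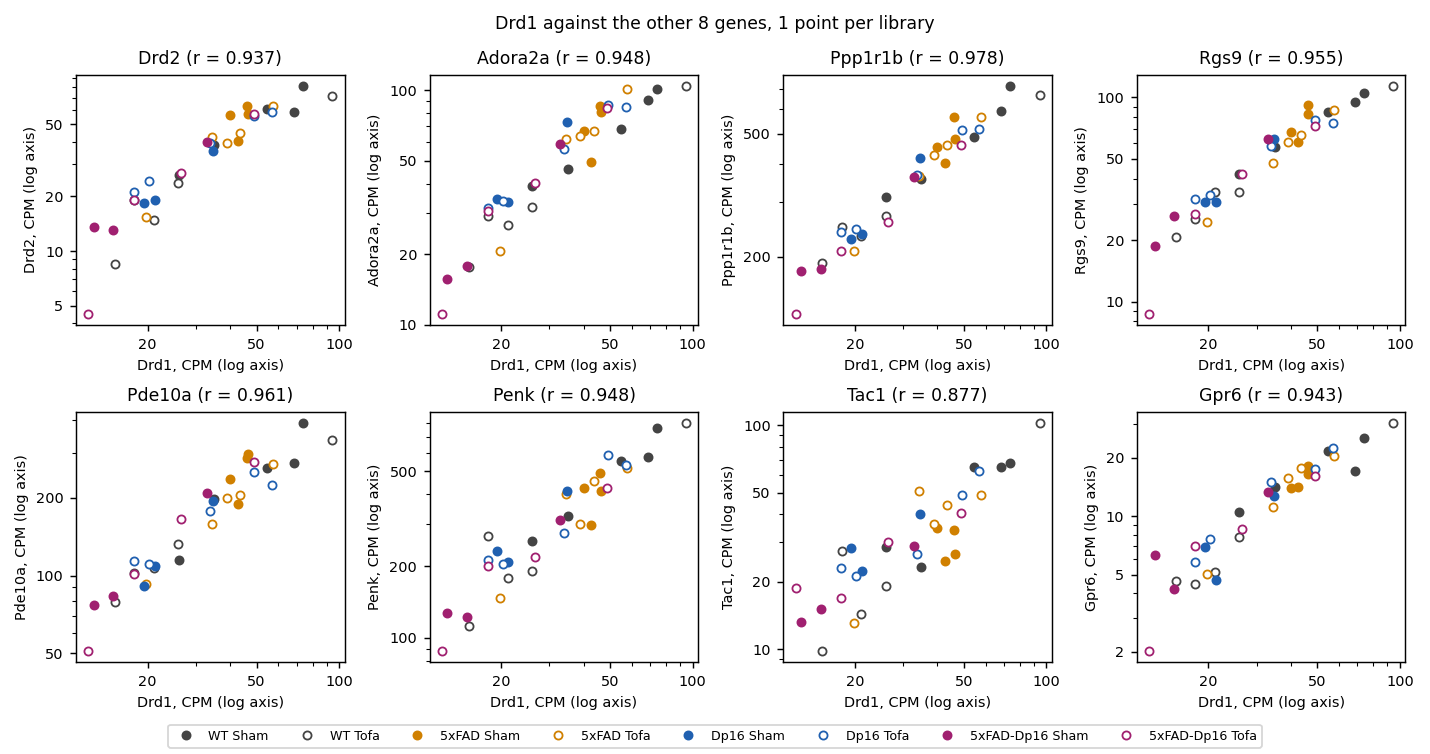
CPM of Drd1 (x axis, log) against CPM of each other gene (y axis, log), 1 point per library, colour for genotype, filled for sham and open for tofacitinib, with Pearson's r of log2 CPM in the title. Points of all groups lie along a single line for Ppp1r1b (r = 0.978) and scatter most for Tac1 (r = 0.877).

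Other genes known from the striatum shared the pattern. Each tested gene was ranked by the Pearson r of its log2 CPM with the members' mean over the 34 libraries, a description with no test. Of 17623 other genes, 28 had an r of at least 0.9, 70 of at least 0.8, and 0 had an r of -0.8 or lower; the median was -0.01. Among the closest were Syndig1l (r = 0.989, 13.4 to 152 CPM) and Pde1b, a calcium-dependent phosphodiesterase (0.98, 96.9 to 341 CPM). Others were Cd4, known as a T cell co-receptor (0.97, 2.50 to 33.6 CPM), Serpina9 (0.96), the retinoid X receptor gene Rxrg (0.953), the actin-binding protein gene Nexn (0.95), Sh3rf2 (0.949), the small GTPase gene Rasd2 (0.946) and the exchange factor gene Rasgrp2 (0.944). The lowest r were those of Cdk14 (-0.731), Gnas (-0.727) and 1700025G04Rik (-0.706). Gnas encodes the stimulatory G protein subunit of most tissues, whereas Gnal, which encodes its counterpart in striatal neurons, had an r of 0.907. Gnas spanned only a 1.27-fold range (1260 to 1600 CPM), so its r describes small differences.

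Of 20 further striatal projection neuron genes, 15 had an r of at least 0.8 and the median was 0.911; Foxp1, a transcription factor also made in cortical neurons, had the lowest at 0.311. Among 6 direct pathway genes the median was 0.682, with the dynorphin precursor gene Pdyn at 0.783, the transcription factor gene Isl1 at 0.878 and Eya1 at -0.337. Among 3 indirect pathway genes the receptor gene Gpr52 had 0.898 and Grik3 had -0.101. In the dopamine and cAMP signalling list the median of 16 tested genes was 0.676, with the adenylyl cyclase gene Adcy5 at 0.89 and Gng7, a G protein subunit gene, at 0.931. The receptor genes Drd4 (-0.27, 0 to 0.893 CPM) and Drd5 (0.0382, 0.0636 to 6.06 CPM) did not share the pattern, and at such low levels their r says little. In the opioid and tachykinin list, which holds receptors for the members' peptides, the median of 10 was -0.096, with the substance P receptor gene Tacr1 at 0.74 and the kappa opioid receptor gene Oprk1 at 0.644. Of 5 tested striatal interneuron and dopamine fibre genes, Chat, which marks cholinergic neurons, had an r of 0.848 and spanned 0.266 to 6.41 CPM. Drd1 itself had r = 0.972 and rho = 0.96 with the mean of the 20 striatal genes, 0.93 and 0.923 with the direct and 0.8 and 0.78 with the indirect pathway list. It had 0.844 and 0.842 with the dopamine and cAMP list, 0.843 and 0.815 with the interneuron and fibre list, and 0.535 and 0.526 with the opioid and tachykinin list. The last had a permutation p of 0.00147 and 0.00176 (adjusted p = 0.00399 and 0.00478 over 19 relations, r = 0.449 without the 2 farthest libraries), and the other 5 had 1e-05, the smallest possible (adjusted p = 3.8e-05), with r of 0.753 to 0.967 without those 2.

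Lists that mark other regions and cell types followed the members weakly, not detectably, or ran against them. The mean of the astrocyte list had r = -0.583 and rho = -0.573 with Drd1 (permutation p = 0.00033 and 0.00058, adjusted p = 0.00104 and 0.00184 over 19 relations), and -0.513 without the 2 farthest libraries. The cortical excitatory neuron list had r = -0.362 and rho = -0.499 (permutation p = 0.0281 and 0.00323, adjusted p = 0.0445 and 0.00767), and -0.346 without those 2. The hippocampus list had r = -0.376 and rho = -0.452 (permutation p = 0.0271 and 0.00809, adjusted p = 0.0445 and 0.0154), -0.402 without those 2 and -0.28 on deviations from group means (permutation p = 0.109). The septum and pallidum list had r = 0.381 and rho = 0.354 (permutation p = 0.0267 and 0.0411, adjusted p = 0.0445 and 0.0557), 0.31 without those 2 (permutation p = 0.0833) and 0.296 on deviations from group means (permutation p = 0.0895). For the thalamus (r = -0.0806, rho = -0.359), choroid plexus (0.0172 and 0.146) and myelinating oligodendrocyte (0.273 and 0.319) lists no relation passed, with permutation p = 0.714, 0.923 and 0.118 for r and adjusted p = 0.848, 0.923 and 0.16. For rho the permutation p were 0.0375, 0.409 and 0.0657 (adjusted p = 0.0547, 0.457 and 0.0833), so the negative rho of the thalamus list lay just short of passing. Nor did one pass for the cortical interneuron (-0.0561 and -0.0301) and microglia (0.0416 and -0.0252) lists, with permutation p = 0.766 and 0.815 for r and adjusted p = 0.856 and 0.86. The total count of a library had r = -0.15 and rho = -0.197 with Drd1 (permutation p = 0.399 and 0.265, adjusted p = 0.506 and 0.315). The first principal component of all genes, 13.8% of the variation, had r = -0.444 and rho = -0.429 (permutation p = 0.00848 and 0.0118, adjusted p = 0.0179 and 0.0205), and -0.448 without those 2 libraries. The second component (7.29%) had r = 0.312 and rho = 0.383 (permutation p = 0.0701 and 0.0254, adjusted p = 0.102 and 0.0402), 0.287 without those 2 and 0.146 on deviations from group means (permutation p = 0.406). The third (5.58%) had r = -0.47 and rho = -0.457 (permutation p = 0.00497 and 0.00692, adjusted p = 0.0118 and 0.0146), -0.46 without those 2 and -0.261 on deviations from group means (permutation p = 0.136).

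**Figure D4:**
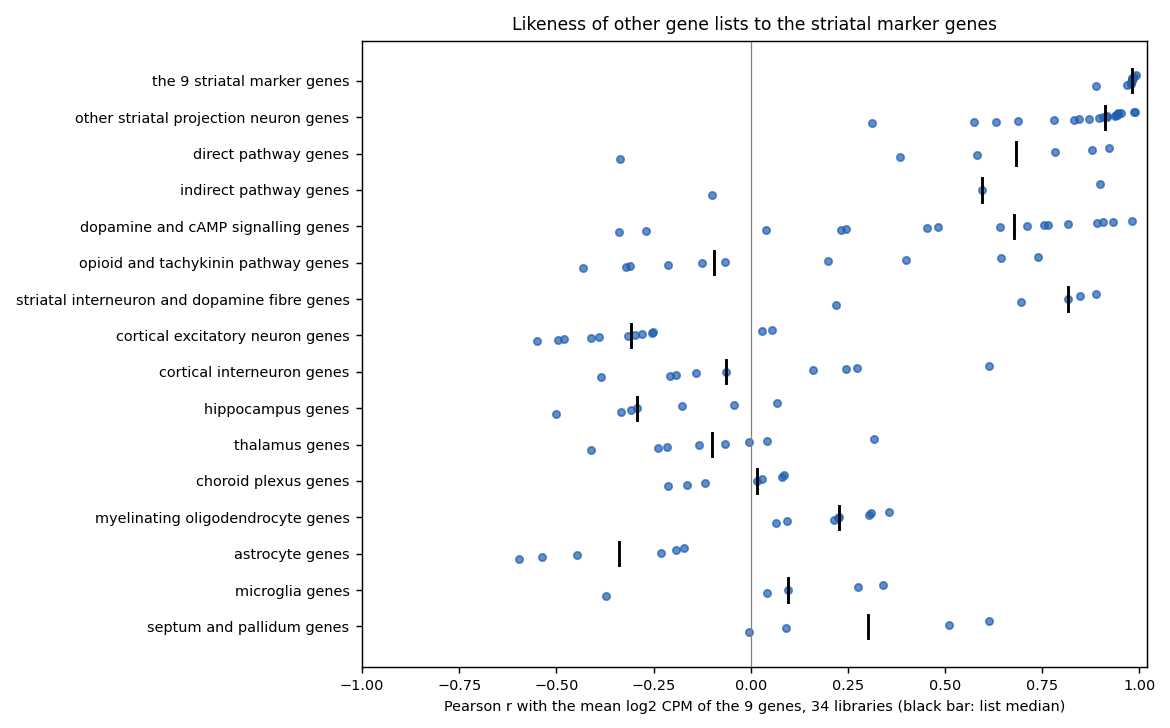
Pearson's r of each tested gene of 16 lists with the mean log2 CPM of the 9 striatal marker genes over 34 libraries, 1 point per gene, with a black bar at the list's median. The striatal projection neuron list (median 0.911) sits close to the 9 genes themselves, whose own values enter the mean, while cortical excitatory neuron genes (median -0.308) and astrocyte genes (median -0.339) lie on the other side of 0.

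To ask what the duplication does on its own, Dp16 Sham was set against WT Sham. All 9 genes lay lower in Dp16, where 49.8% of all tested genes did, by a median log2 fold change of -0.90 against 0.000665 over all genes, and Drd1 was at 25.1 ± 8.33 CPM (SD, n = 3) against 51.6 ± 20.8 (n = 5). None passed at an edgeR adjusted p under 0.05, where 0.21% of all tested genes did; the members' adjusted p were 0.665 to 0.915. At an unadjusted p under 0.05, 1 was lower, Drd1 (log2 fold change -1.05, SE 0.50, edgeR adjusted p = 0.665), against 3.22% of all genes. The groups overlapped for each of the 9, where 4.59% of all genes did not overlap, and without Dp16 Sham 3 the median was -1.49. In the same comparison 7 of 7 choroid plexus genes lay higher (median 1.06, summed level 14.9 to 976 CPM against 12.6 to 228), as did 6 of 7 hippocampus genes (median 0.54, 29.5 to 29.7 against 19.9 to 30.8 CPM), and 5 of 5 microglia genes lay lower (median -0.14, 309 to 348 against 309 to 393 CPM). None of these was called, and their part in the members' result was not tested. DESeq2 and limma-voom called 0 of the 9.

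To ask what the transgenes do on their own, 5xFAD Sham was set against WT Sham. The levels of the 9 genes were close to those of WT, with a median log2 fold change of -0.02 and 4 above and 5 below 0. None passed, where 0.017% of all tested genes did, none had an unadjusted edgeR p under 0.05, where 24.8% did, and DESeq2 and limma-voom called 0. Drd1 was at 43.7 ± 3.03 CPM (SD, n = 4) in 5xFAD Sham and Tac1 at 30.0 ± 5.05 against 49.9 ± 22.0 (n = 5). Tac1 had the lowest log2 fold change of the 9, -0.66 (SE 0.48, edgeR adjusted p = 0.401).

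With both lesions together, 5xFAD-Dp16 Sham was set against WT Sham. All 9 genes lay lower, where 49.2% of all tested genes did, by a median log2 fold change of -1.23 against 0.00602 over all genes, from -1.06 for Ppp1r1b to -1.48 for Penk. Penk was at 187 ± 109 CPM (SD, n = 3) against 494 ± 204 (n = 5), and Drd1 at 20.2 ± 11.05 against 51.6 ± 20.8. None passed at an edgeR adjusted p under 0.05, where 0.363% of all tested genes did, with adjusted p of 0.242 to 0.327. At an unadjusted p under 0.05 all 9 were lower, against 7.62% of all genes, and these genes share their libraries and moved together, so they are not 9 separate observations. The groups overlapped for all 9, where 9.73% of all genes did not overlap. In the same comparison 7 of 7 hippocampus genes lay higher (median 1.19, summed level 29.7 to 66.6 CPM against 19.9 to 30.8, none called), as did 11 of 12 cortical excitatory neuron genes (median 0.26, 2612 to 2940 against 1968 to 2875 CPM, none called). Of 6 astrocyte genes 5 lay higher (median 0.15, summed level 5829 to 6430 against 4305 to 6005 CPM). No tested gene of these 3 lists was at 0 in all libraries of a group, and their part in the members' result was not tested. DESeq2 and limma-voom called 0 of the 9, and a fit of only these 2 groups called 2, Penk and Gpr6. Over such alternatives, the unfiltered fit and single libraries left out aside, 43 to 353 of all genes passed.

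The duplication was also examined on the background of the transgenes, in 5xFAD-Dp16 Sham against 5xFAD Sham. All 9 genes lay lower, where 48.8% of all tested genes did, by a median log2 fold change of -1.16 against 0.00573 over all genes. None passed, where 0.102% of all tested genes did, each edgeR adjusted p being 0.9998. At an unadjusted p under 0.05, 7 were lower, all but Tac1 and Gpr6, against 1.66% of all genes. DESeq2 and limma-voom called 0 of the 9. For Drd1, Drd2, Ppp1r1b and Gpr6 the 3 and 4 libraries did not overlap, where 9.95% of all tested genes did not. Ppp1r1b was at 363, 180 and 182 CPM in 5xFAD-Dp16 Sham 1, 2 and 4, and at 452, 483, 403 and 569 CPM in 5xFAD Sham 1 to 4. Gpr6 was at 13.3, 6.34 and 4.23 CPM against 14.0, 16.6, 14.1 and 18.04 CPM. Here 7 of 7 hippocampus genes (median 0.88, summed level 29.7 to 66.6 against 25.2 to 33.9 CPM) and 6 of 6 astrocyte genes (median 0.10, 5829 to 6430 against 5349 to 6256 CPM) lay higher, and 5 of 5 microglia genes lower (median -0.17, 329 to 398 against 394 to 455 CPM), none called, and their part was not tested. In both Ppp1r1b and Gpr6 mouse 1 of 5xFAD-Dp16 Sham lay close to the lowest 5xFAD mouse, and mice 2 and 4 far below it. These comparisons share sham groups and are not independent. Between 5xFAD-Dp16 and Dp16 Sham none of the 9 passed, where 0.00567% of genes did, or had an unadjusted edgeR p under 0.05, where 6.23% did, DESeq2 and limma-voom called 0, and the median of -0.31 became 0.12 without Dp16 Sham 3. Without the 2 libraries that stood apart, WT Sham 2 and 5xFAD Tofa 2, the medians of Dp16 and 5xFAD-Dp16 against WT and of 5xFAD-Dp16 against 5xFAD were -0.89, -1.27 and -1.19, with 0 of the 9 called. The absence of calls depended on the low-count filter: in an edgeR fit without it, in which the genes' own spread between mice no longer entered the test, 9 of the 9 passed in each of these 3 comparisons, against 158, 873 and 145 of all 32026 genes.

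**Figure D5:**
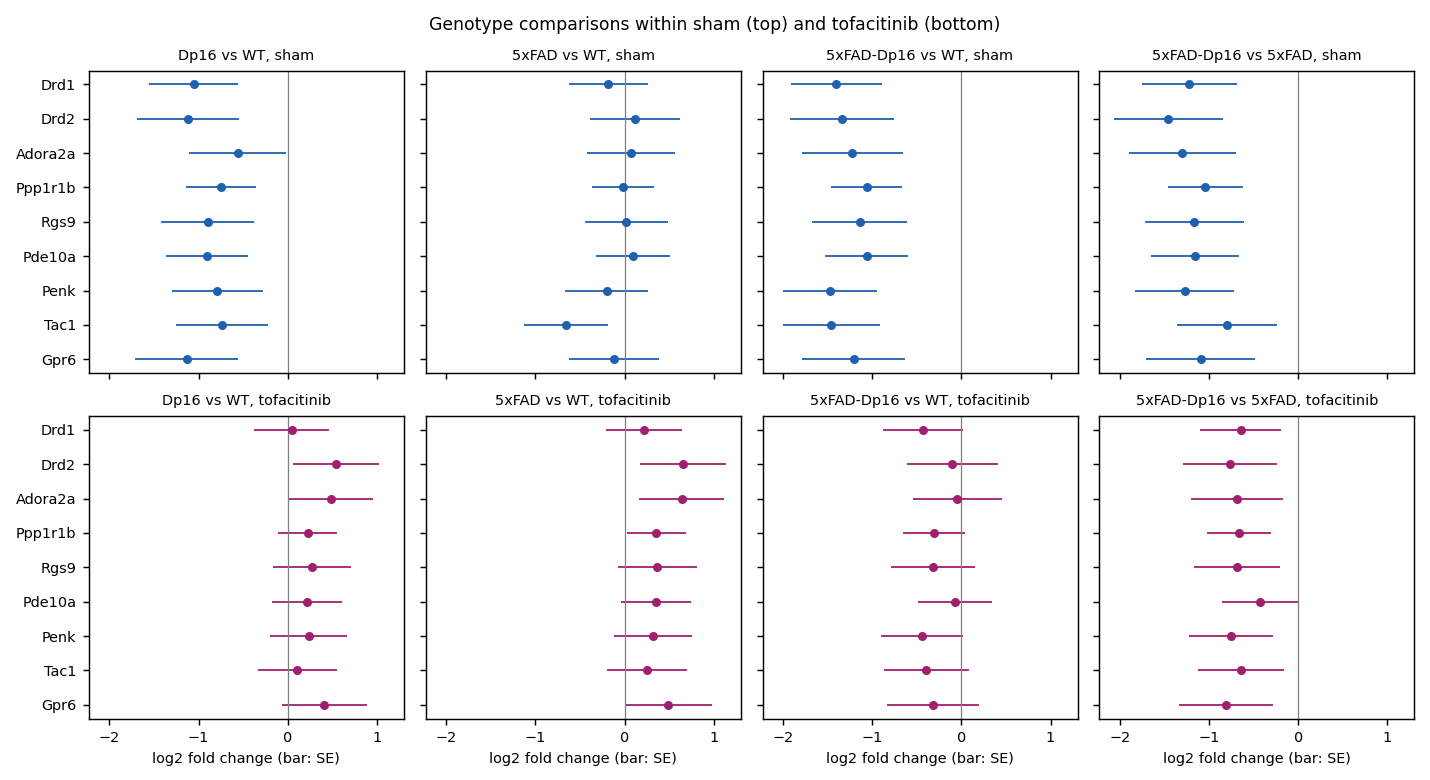
Log2 fold change of each gene with its SE, from edgeR, for 4 genotype comparisons within sham (top) and within tofacitinib (bottom). Among sham mice all 9 points lie left of 0 in the 3 comparisons of a Dp16 or 5xFAD-Dp16 group shown, with medians of -0.90, -1.23 and -1.16, and among tofacitinib mice this holds for the 2 comparisons of 5xFAD-Dp16, where without WT Tofa 1 the median against WT was 0.47; no point passed the adjusted threshold.

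The same genotype comparisons were made among tofacitinib mice. The median log2 fold change of the 9 genes was 0.24 for Dp16 against WT, 0.36 for 5xFAD against WT and -0.32 for 5xFAD-Dp16 against WT. It was -0.69 for 5xFAD-Dp16 against 5xFAD and -0.54 for 5xFAD-Dp16 against Dp16. None of the 9 passed in any of the 5 comparisons, where 0.25%, 0.017%, 0.306%, 0.238% and 0.00567% of all tested genes did, in that order. None had an unadjusted edgeR p under 0.05, where 8.5%, 6.39%, 6.41%, 8% and 4.62% of all genes did, and DESeq2 and limma-voom called 0. The comparisons with WT depended on WT Tofa 1: without it the medians were 0.96, 0.99 and 0.47, so that the last turned its sign. Without the low-count filter 2, 2, 1, 9 and 7 of the 9 passed in these 5 comparisons, against 146, 76, 153, 295 and 111 of all 32026 genes. In that fit the genes' own spread between mice did not enter the test.

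Over both treatments and with and without the transgenes, mice with the duplication were compared with those without it as the mean of 4 contrasts. All 9 genes lay lower in carriers, where 48.7% of all tested genes did, with log2 fold changes from -0.52 for Adora2a to -0.72 for Drd1 and a median of -0.62, against 0.00441 over all genes. Without WT Tofa 1, a non-carrier, the median was -0.40, with -0.29 for Adora2a and -0.46 for Drd1. None passed, where 2.14% of all tested genes did; the lowest edgeR adjusted p was 0.130, for Drd1 (SE 0.24). At an unadjusted p under 0.05, 8 were lower, all but Adora2a, against 7.17% of all genes. DESeq2 called 0 of the 9, limma-voom 2, and edgeR without the low-count filter 9. The unfiltered fit called 672 of all 32026 genes, and the other alternatives 206 to 1163 genes. By mouse, Drd1 spanned 12.2, 21.2 and 56.9 CPM (lowest, median and highest) in 15 carriers and 15.2, 39.9 and 94.5 CPM in 19 non-carriers, so the ranges overlapped widely. The difference between the duplication's effect under tofacitinib and under sham was above 0 for all 9 (median 0.83), where 52.5% of all tested genes were below 0. Drd2 (1.18, SE 0.53) and Pde10a (0.93, SE 0.44) had an unadjusted edgeR p under 0.05, against 2.33% of all genes in either direction, and each adjusted p was 1, with 0% of all genes passing and 0 of the 9 in DESeq2 or limma-voom.

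In that comparison of carriers with non-carriers, a few genes of related lists passed, where 2.14% of all tested genes did. Of the 20 further striatal genes, 2 fell: Six3, a transcription factor of striatal neurons, by 1.11 (SE 0.31, edgeR adjusted p = 0.0482) and Foxp2, a transcription factor of striatal and deep-layer cortical neurons, by 0.35 (SE 0.07, adjusted p = 0.00711) on the log2 scale, with 20 of 20 below 0 and a median of -0.39. Of the 10 opioid and tachykinin genes, Oprk1 fell by 0.67 (SE 0.13, edgeR adjusted p = 0.00168). None of 6 direct pathway, 3 indirect pathway, 16 dopamine and cAMP signalling or 5 striatal interneuron and dopamine fibre genes passed, with medians of -0.33, -0.29, -0.11 and -0.98. Of 9 cortical interneuron genes 2 rose, Sst (0.19, edgeR adjusted p = 0.0464) and Vip (0.49, adjusted p = 0.0212). The inhibitory transmitter transporter gene Slc32a1 (-0.23, edgeR adjusted p = 0.0178), the myelin gene Cnp (-0.25, adjusted p = 0.0397) and the microglial receptor gene P2ry12 (-0.21, adjusted p = 0.0397) fell. Among these called genes, r with the members' mean was 0.871 for Six3, 0.688 for Foxp2, 0.644 for Oprk1 and 0.612 for Slc32a1. It was 0.277 for P2ry12, 0.159 for Sst, 0.0645 for Cnp and -0.14 for Vip. Whether these calls are separate from the members' level was not tested gene by gene. The medians were 0.01 for 12 cortical excitatory neuron genes, -0.05 for 7 hippocampus genes and 0.04 for 6 astrocyte genes, with none called. One other gene of these lists passed elsewhere, the myelin gene Mag, which fell by 0.64 in 5xFAD-Dp16 against 5xFAD under tofacitinib (edgeR adjusted p = 0.0202).

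Tofacitinib was compared with sham within each genotype for the effect of the drug. In WT all 9 genes lay lower, with a median log2 fold change of -0.72, and without WT Tofa 1 the median was -1.41. Without the low-count filter 9 of the 9 passed in WT, against 50 of all 32026 genes, in a fit that the genes' own spread did not enter. In that comparison 6 of 7 hippocampus genes lay higher (median 1.0, summed level 23.0 to 98.6 CPM against 19.9 to 30.8), 4 of them with an unadjusted edgeR p under 0.05, as did 6 of 6 astrocyte genes (median 0.20, 4262 to 6724 against 4305 to 6005 CPM). None was called, and their part in the members' result was not tested. In Dp16 all 9 lay higher (median 0.41), in 5xFAD 8 lay lower (median -0.18, and 0.00324 without 5xFAD Tofa 1), and in 5xFAD-Dp16 all 9 lay higher (median 0.29, and -0.16 without 5xFAD-Dp16 Tofa 2). Of all tested genes, 47.8%, 48.9%, 47.7% and 50% were below 0 in these 4 comparisons. None of the 9 passed in any genotype or in their mean (median -0.05), where 0% of all tested genes did. None had an unadjusted edgeR p under 0.05, where 7.3%, 2.05%, 14.8%, 1.92% and 3.36% of all genes did, and DESeq2 and limma-voom called 0. Between the sexes the median was -0.21 for male against female, 0.03 without WT Tofa 1, with none of the 9 passing, where 0.0624% of all genes did, or having an unadjusted edgeR p under 0.05, where 5.53% did, and 0 called by DESeq2 or limma-voom.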

How the data were processed

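Poly-A RNA of 34 mouse cortices was sequenced as paired 150-base reads from a strand-specific kit, per the labels' protocols. The deposited counts are whole numbers per gene and mouse. The submitters' processing notes list HISAT2 2.1.0, SAMtools 1.5, HTSeq 0.6.1 and GRCm38 without roles; the strand setting of the counting is not given in the sources used here. Without it, reads of Ppp1r1b, Penk and Pde10a cannot be told from those of genes overlapping on the opposite strand, which held at most 43, 40 and 4 counts in a library. The deposited RPKM values were scaled by the authors by gene length and column total. Each gene's length was derived here from the counts and the deposited RPKM. Values recomputed with it matched all 713471 nonzero ones to a relative 7.13e-14, which checks the scaling to column totals and not the lengths.

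Genes kept by filterByExpr were TMM-scaled and tested in edgeR 4.0.16 (R 4.3.3) with a quasi-likelihood fit of all 34 libraries, with terms for group and sex, and two-sided F-tests adjusted by Benjamini-Hochberg over all 17632 genes in each of 18 comparisons. The fit was tested on simulated data. SEs were obtained as log2 fold change over the root of F. CPM use TMM-scaled totals, and log2 CPM a prior count of 2. A list's level is the mean of its genes' log2 CPM, or their summed CPM where stated. Permutations used numpy 2.4.6, with ranks from scipy 1.17.1. Alternatives were DESeq2 1.42.0, limma-voom (limma 3.58.1), other filters and scalings, leaving out the sex term, a block for replicate number, only the groups compared, and libraries left out; the comparison of the duplication's effect between treatments and the relations of Drd1 with lists, components and totals were added after seeing the data. No 2 libraries held identical values.

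The 9 genes and the 15 other lists were chosen with earlier results of these data known. All 9 were named with values; of the lists, genes called in a comparison and set markers were named, and the 10 genes most and 3 least like the members by r, except for items not reported here. Other list genes named were chosen after their values were seen. Where the series text counts 6 tofacitinib mice with 5xFAD and 4 sham mice with 5xFAD-Dp16, 5 and 3 were analysed here. Each library is a different mouse, and the labels give no batch.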

Additional observations from a re-analysis of the deposited data

Results flagged for a closer look

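WT Tofa 1 lay far above the other 4 mice of its group for all 9 genes on the CPM scale. The gap in CPM to the next mouse, divided by the group's range, passed Dixon's 95% value for 5 samples (0.71). On the log2 scale used elsewhere, a gap at the high end fills less of the range, and the ratio was not taken there. Its levels were 94.5 CPM for Drd1, 71.6 for Drd2, 104 for Adora2a, 670 for Ppp1r1b, 114 for Rgs9, 334 for Pde10a, 798 for Penk, 102 for Tac1 and 30.1 for Gpr6. Of 54 groups of CPM values tested for the 9 genes, these 9 passed, and chance flags about 1 in 20 where values are normally spread. As the genes move together, they are not 9 separate observations, and all come from 1 mouse. Without WT Tofa 1 the median log2 fold change of the 9 genes for tofacitinib against sham in WT was -1.41 in place of -0.72, and for 5xFAD-Dp16 against WT under tofacitinib 0.47 in place of -0.32.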

How the results depend on the processing

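With edgeR and no low-count filter, members passed in most comparisons: among sham mice 9 in Dp16 against WT, 1 in 5xFAD against WT, 9 in 5xFAD-Dp16 against WT, 9 against 5xFAD and 3 against Dp16; under tofacitinib 2, 2, 1, 9 and 7 in the same order; for the drug 9 in WT, 2 in Dp16 and 3 in 5xFAD; for carriers 9, for the duplication's effect between treatments 8, and by sex 3. That fit of 32026 genes had an infinite prior df, so that quasi-dispersions of the 9 genes were set by the trend at 0.651 to 0.836, where the filtered fit had a prior df of 6.79 and 6.43 to 13.8. Of all its genes, 31 (the drug in Dp16) to 1784 (5xFAD against WT sham) passed in a comparison. A fit of only the groups compared called 2 members in 5xFAD-Dp16 against WT sham, and limma-voom 2 in carriers; the cause was not tested. In all other alternatives, DESeq2 among them, and with each library left out in turn, 0 to 0 members passed in each of the 18 comparisons. With the replicate block 0 members passed in each. Numbers did not pair mice: over 98 same-numbered pairs of different groups the median correlation of deviations was 0.0142, the lowest -0.392, and 9 were over 0.1. The relations of Drd1 with the other 8 genes kept r between 0.856 and 0.981 under every alternative run.

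Counts of all genes called, which set the background shares, moved more. Without the unfiltered fit they ran over other alternatives from 6 to 63 in Dp16 against WT sham (37 as reported), 1 to 2512 in 5xFAD against WT sham (3), 43 to 353 in 5xFAD-Dp16 against WT sham (64), 13 to 90 in 5xFAD-Dp16 against 5xFAD sham (18), 206 to 1163 for carriers (378) and 5 to 27 by sex (11). Under tofacitinib they ran from 13 to 147 (44), 0 to 47 (3), 5 to 195 (54), 0 to 190 (42) and 1 to 3 (1), and for the drug from 0 to 990 in 5xFAD (0). Leaving out WT Sham 3 raised 5xFAD against WT sham to 1981.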

Other observations

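Adding the mean level of the 9 genes to the fit, an alternative chosen after seeing the data, changed which other genes were called. In 5xFAD-Dp16 against WT sham 64 other genes passed without it and 28 with it, 27 of them in both. In carriers against non-carriers 378 passed without it and 770 with it, 328 in both, and in 5xFAD against WT sham 3 and 1541, with 3 in both. In Dp16 against WT sham the counts were 37 and 52, with 36 in both. Without this term the count in 5xFAD against WT sham already ran from 1 to 2512 over other alternatives, so the rise to 1541 cannot be credited to the term.

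The within-group SD of the members' mean log2 level was 0.74, which describes single mice and not the error of a difference between groups. The median difference of the 9 genes between carriers and non-carriers was -0.62, with SEs from 0.19 for Ppp1r1b to 0.28 for Gpr6, and none passed after adjustment.

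Ttr, the choroid plexus transthyretin gene, spanned 0.894 to 1440 CPM, and C1ql2, a dentate gyrus gene, 1.07 to 32.4 CPM, highest in 5xFAD Tofa 2 and WT Tofa 3. The dentate gene Prox1 spanned 8.98 to 29.1 CPM, and the myelin gene Mbp spanned 3450 to 9060 CPM, highest in 5xFAD Tofa 2.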
